A study of Mus musculus with 11 samples.

Results

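The Hox genes described here are the genes of the HoxA, HoxB, HoxC and HoxD clusters, taken as every gene of the count table whose identifier mapped to a mouse symbol made of Hox, a cluster letter from a to d and a number. The rule found 39 genes among the 27179 genes of the table. The rule uses the symbol and no measured value. They divide into 11 genes of cluster A, 10 of cluster B, 9 of cluster C and 9 of cluster D.

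The libraries were bulk polyA RNA-seq of mammary epithelial cells from C57BL/6 females that carried E-cadherin-GFP and were 5 weeks old, in puberty. Terminal end buds (TEBs), the bulbous growing tips of the pubertal ductal tree, and the ducts behind them were microdissected and sorted into basal cells (Ecad-GFP lo) and luminal cells (Ecad-GFP hi). Both gates took CD29+CD24+ cells and left out blood and endothelial cells, that is cells with Ter119, CD31 or CD45. This gave 3 basal duct, 3 basal TEB, 2 luminal duct and 3 luminal TEB libraries, each from at least 2 pooled mice. Another luminal duct sample had been discarded for low cell numbers, so the luminal duct libraries carry the numbers 1 and 3.

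The 11 libraries held between 27989137 and 49221436 counts. The 6 basal markers, such as Krt5 and Acta2, summed to between 4950 and 17600 CPM (counts scaled to the library's TMM-adjusted size) in basal libraries and to between 11.9 and 217 CPM in luminal libraries. The 6 luminal markers, such as Krt8 and Elf5, summed to between 11700 and 18200 CPM in luminal libraries and to between 242 and 522 CPM in basal libraries. The mitochondrial share of the counts ranged from 4.34% to 37.5% and was highest in basal TEB 1, with luminal duct 3 next at 28.5%. In bulk libraries such as these, fewer cells of a type and less RNA per cell cannot be told apart.

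Hox genes encode homeodomain transcription factors that specify position along the body axis, and the clusters arose by duplication of an ancestral one. Genes at the same place in different clusters form a paralog group, numbered from the 3′ end, and in the embryo the 3′ genes are switched on earlier and further forward than the 5′ genes. In the mammary gland, Hox genes are known from mouse mutants of the paralog group 9 genes, whose glands develop poorly in pregnancy, and Hoxc8 has been described in the early mammary placode.

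Only Hoxb2, Hoxb3 and Hoxb4 were counted in every library, and they lie next to each other on mm10 chromosome 11. Hoxb2 spanned chr11:96351632-96354020, Hoxb3 chr11:96307101-96347930 and Hoxb4 chr11:96318267-96321638, so that Hoxb4 sat inside the annotated span of Hoxb3. The homeobox, the 180 bases that encode the DNA-binding homeodomain, is the stretch most alike between Hox genes and therefore the one in which reads could be shared. It is shown for Hoxb2, where it lay within exon 2 of 2 on the plus strand (chr11:96352985-96353164) in a GENCODE transcript of GRCm38. Capitals mark codons 42 to 58, which encode the third helix, the one that lies in the major groove of the DNA.
Hoxb2: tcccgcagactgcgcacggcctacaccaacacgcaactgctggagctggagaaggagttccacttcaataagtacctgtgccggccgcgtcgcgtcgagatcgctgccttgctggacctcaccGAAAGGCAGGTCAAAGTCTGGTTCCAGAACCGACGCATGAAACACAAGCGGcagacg

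The homeobox of Hoxb3 was identical to that of Hoxa3 at 93.9% of its bases and to that of Hoxd3 at 92.8%. Hoxb2 shared 74.4% with Hoxa2 of its own paralog group, and more with Hoxd3 (77.8%), Hoxa3 (75.6%) and Hoxb3 (75.0%). Hoxb4 shared 82.8% with Hoxa4, 82.2% with Hoxc4, 81.7% with Hoxb5 and 80.6% with Hoxd4. Over whole transcripts, the longest run identical to any other Hox gene was 28 bases for Hoxb2, 47 bases for Hoxb3 and 52 bases for Hoxb4, each shorter than the 80-base reads. The antisense gene Hoxb3os, which is not in the count table, overlapped 27.3% of the exon bases of Hoxb2 and 52.9% of those of Hoxb3 in GENCODE. The library kit did not mark strand, so sense and antisense reads in those bases cannot be told apart. The counted lengths were 1631 bases for Hoxb2 and 3721 for Hoxb3, against 3488 and 4251 exon bases in GENCODE. The share of the counted exons that Hoxb3os overlapped is therefore not known. No GENCODE gene overlapped the exons of Hoxb4.

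The 39 genes fell into a few that were always counted and many that were rarely or never counted. Of the 39, 13 had no count in any library, 26 had at least 1 count, and 3 had at least 10 counts in all 11 libraries. Among the genes without a count were Hoxa9, Hoxa11, Hoxa13, Hoxb13, Hoxc8, Hoxc11, Hoxc12, Hoxc13, Hoxd1, Hoxd11, Hoxd12 and Hoxd13. A count of 0 allows a level of up to 3 counts, which was between 0.0572 and 0.173 CPM depending on the library. These limits cover counting error only.

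**Figure D1:**
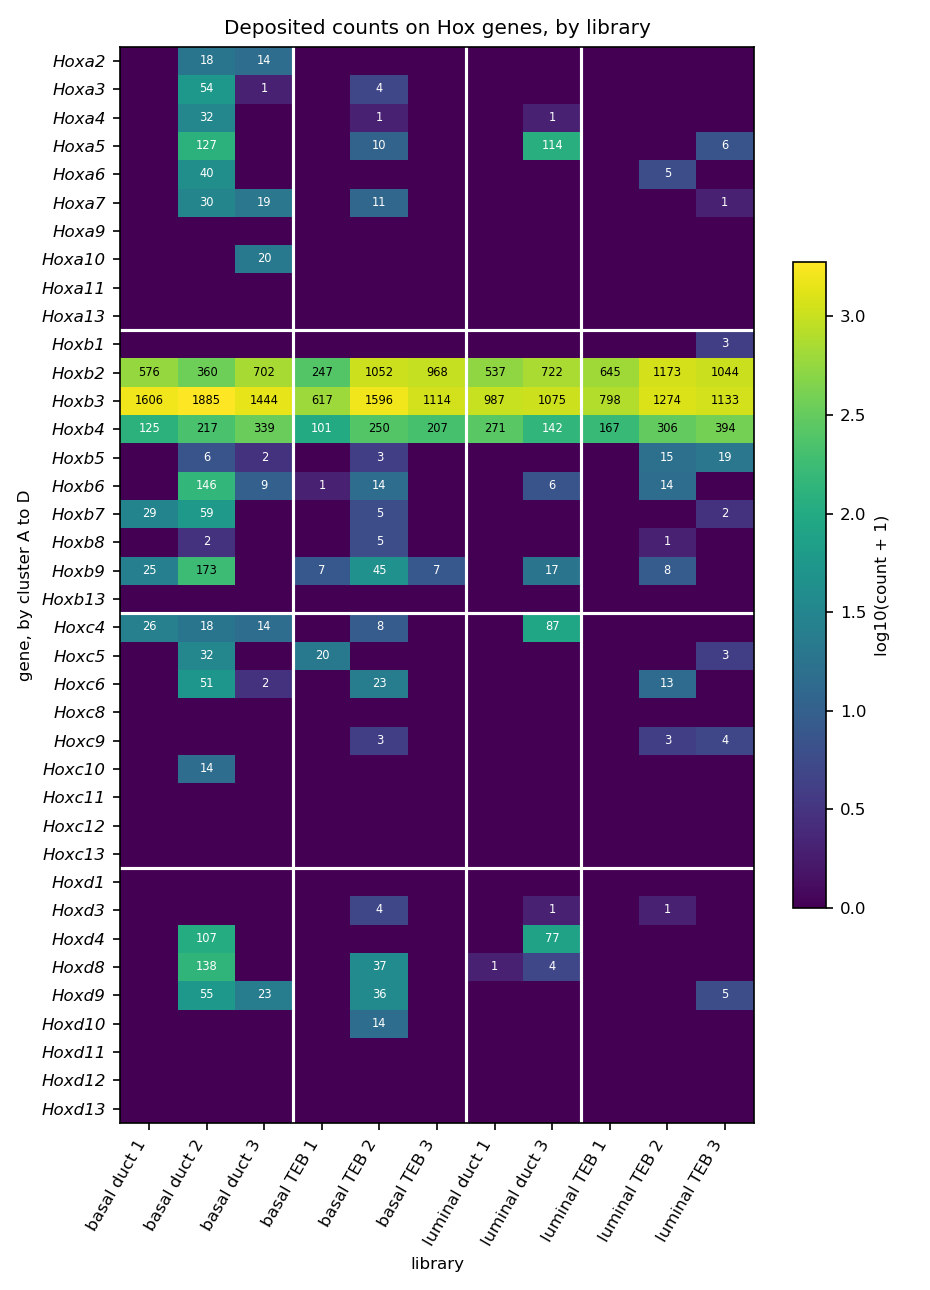
Deposited counts of Hox genes (rows, by cluster A to D) in the 11 libraries (columns), coloured by log10(count + 1) and printed in the cell where above 0. Hoxb2, Hoxb3 and Hoxb4 are filled in all 11 libraries, and the other filled cells gather in basal duct 2, basal TEB 2 and luminal duct 3.

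Cluster B (chr11:96194316-96368254) held 24697 counts over all libraries, with 9 of its 10 genes counted. Nearly all of these were on Hoxb2 (8026), Hoxb3 (13529) and Hoxb4 (2519). Cluster A (chr6:52155367-52260880) held 508 counts with 7 of 11 genes counted, cluster C (chr15:102921131-103036856) 321 counts with 5 of 9, and cluster D (chr2:74668225-74765142) 503 counts with 5 of 9. Cluster B was the only cluster with a count in all 11 libraries, while clusters A, C and D had counts in 6, 8 and 7 libraries. That came from Hoxb2, Hoxb3 and Hoxb4, as the other 7 genes of cluster B had 0 counts in luminal duct 1 and luminal TEB 1.

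By paralog group, counts were concentrated near the 3′ end. Group 3 held 13594 counts, group 2 held 8058 and group 4 held 2890, of which 65, 32 and 371 lay outside Hoxb2, Hoxb3 and Hoxb4. Group 1, at the 3′ end itself, held 3 counts, all on Hoxb1 in luminal TEB 3. Groups 5 to 9 held between 156 and 411 counts each. The 12 genes of groups 10 to 13, the 5′ genes that pattern the posterior trunk and distal limbs, held 48 counts in all. Those were 20 on Hoxa10 in basal duct 3, 14 on Hoxc10 in basal duct 2 and 14 on Hoxd10 in basal TEB 2, and groups 11, 12 and 13 had none.

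Per length and averaged over all libraries, Hoxb2 was the highest Hox gene, with a mean of 11.2 RPKM (CPM divided by the counted gene length in kilobases) over the 11 libraries, at the 77.8th percentile of all genes in the table. Hoxb3 had a mean of 8.55 RPKM, at the 73.6th percentile, and Hoxb4 2.23 RPKM, at the 58th percentile. The next gene per length was Hoxa5 at 0.405 RPKM. Hoxb3 had the most counts, 13529 against 8026 for Hoxb2, over a counted length of 3721 bases against 1631 bases.

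Hoxb2 had group means (± SD) of 7.97 ± 2.74 RPKM for basal ducts, 13 ± 3.97 RPKM for basal TEBs, 12.8 ± 7.57 RPKM for luminal ducts and 11.6 ± 2.49 RPKM for luminal TEBs, with n = 2 for luminal ducts and n = 3 for the rest. Those of Hoxb3 were 10.6 ± 2.43, 9 ± 0.594, 8.96 ± 4.13 and 5.73 ± 0.865 RPKM in the same order, and those of Hoxb4 2.2 ± 1.21, 2.19 ± 0.124, 2.34 ± 0.0906 and 2.23 ± 0.75 RPKM. In the basal duct means the order of the leading pair was turned, Hoxb3 at 10.6 RPKM lying above Hoxb2 at 7.97 RPKM. Single libraries differed: in basal duct 3 Hoxb2 at 11 RPKM was above Hoxb3 at 9.96 RPKM. In basal TEB 1 Hoxb3 at 9.57 RPKM was above Hoxb2 at 8.74 RPKM. In order of level, luminal TEB cells were lowest for Hoxb3 and basal duct cells were lowest for Hoxb2, while the 4 means of Hoxb4 lay between 2.19 and 2.34 RPKM. The libraries of neighbouring groups in each order overlapped. Basal and luminal TEB cells, which were not neighbours in the order of Hoxb3, did not overlap for that gene.

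**Figure D2:**
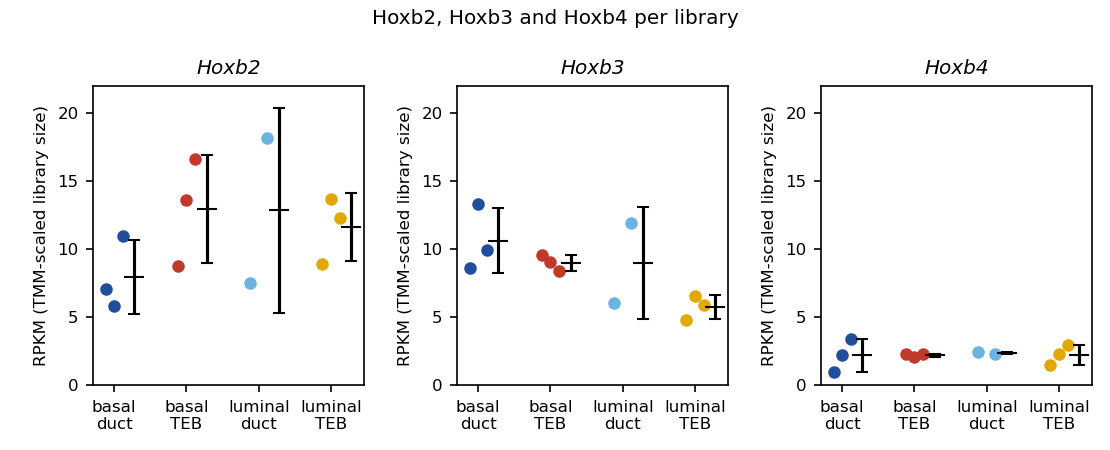
RPKM (CPM per kilobase, on TMM-scaled library sizes) of Hoxb2, Hoxb3 and Hoxb4 in each library by group (points), with the group mean and SD (black). Hoxb3 in luminal TEB cells (mean 5.73 RPKM) lies below basal TEB cells (mean 9 RPKM) in all libraries, and the group means of Hoxb4 lie between 2.19 and 2.34 RPKM, with single libraries between 0.972 and 3.39 RPKM.

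Hoxb3 and Hoxb2 did not keep a fixed ratio across libraries. The count of Hoxb3 divided by that of Hoxb2 was 2.79, 5.24 and 2.06 in basal duct 1 to 3 and 2.5, 1.52 and 1.15 in basal TEB 1 to 3. It was 1.84 and 1.49 in luminal duct 1 and 3, and 1.24, 1.09 and 1.09 in luminal TEB 1 to 3. Each basal duct library was above each luminal library, and basal TEB 2 and 3 lay among the luminal values. This ratio was described and not tested.

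Differences between TEBs and ducts were tested for the 16 Hox genes that passed the filter on low counts: Hoxa2, Hoxa5, Hoxa7, Hoxb2 to Hoxb7, Hoxb9, Hoxc4, Hoxc5, Hoxc6, Hoxd4, Hoxd8 and Hoxd9. The other 23 were the 13 without a count and Hoxa3, Hoxa4, Hoxa6, Hoxa10, Hoxb1, Hoxb8, Hoxc9, Hoxc10, Hoxd3 and Hoxd10. In basal cells, edgeR's quasi-likelihood test called 0 of 16 at a false discovery rate (FDR) below 0.05, beside 1.32% of the 17370 genes tested, and 0 of 16 at an unadjusted p below 0.05, beside 14.5%. DESeq2 called 0 of 16 (5.03% of all genes) and gave no adjusted p for 13 of them. EdgeR's likelihood ratio test (4.07%), limma voom (3.46%) and limma voom with sample weights (2.37%) also called 0.

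Hoxb2 was counted at 11.5, 9.47 and 18.0 CPM in basal duct 1 to 3 and at 14.3, 22.1 and 27.1 CPM in basal TEB 1 to 3. The groups overlapped, and the log2 fold change of TEB over duct was 0.71 (SE 0.41, 95% interval -0.19 to 1.6, FDR = 0.456 by edgeR). Hoxb3 was at 32, 49.6 and 37.0 CPM in basal ducts and at 35.6, 33.6 and 31.2 CPM in basal TEBs. Its log2 fold change was -0.24 (SE 0.279, interval -0.85 to 0.367, FDR = 0.752). Hoxb4 ranged from 2.49 to 8.70 CPM in basal ducts, and the basal TEB libraries at 5.83, 5.26 and 5.80 CPM lay inside that range.

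In luminal cells, edgeR also called 0 of 16 Hox genes between TEBs and ducts, beside 1.41% of all genes tested. At an unadjusted p below 0.05 it found 1, beside 16.6% of all genes, which was Hoxc4 (FDR = 0.178 by edgeR). Hoxc4 had 87 counts in luminal duct 3, and 0 in luminal duct 1 and in the 3 luminal TEB libraries, so this value rested on 1 library. The likelihood ratio test called Hoxc4, beside 5.79% of all genes, whereas DESeq2 (7.35%), limma voom (2.02%) and limma voom with sample weights (1.78%) called 0 Hox genes. DESeq2 gave no adjusted p for 12 of the 16.

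Hoxb2 was at 12.2 and 29.7 CPM in luminal duct 1 and 3 and at 14.5, 22.3 and 20.1 CPM in luminal TEB 1 to 3, with a log2 fold change of TEB over duct of -0.14 (SE 0.455, interval -1.14 to 0.852, FDR = 0.916 by edgeR). Hoxb3 was at 22.5 and 44.2 CPM in luminal ducts and at 17.9, 24.3 and 21.8 CPM in luminal TEBs, a log2 fold change of -0.64 (SE 0.308, interval -1.32 to 0.0303, FDR = 0.32). For both genes luminal duct 3 was the highest luminal library. Luminal duct 1 lay among the TEB values for Hoxb3 and below them for Hoxb2. Hoxb4 was at 6.17 and 5.84 CPM in luminal ducts, inside its range of 3.74 to 7.59 CPM in luminal TEBs. The test of whether the TEB-to-duct change differed between basal and luminal cells called 0 of 16 Hox genes with edgeR (0.443% of all genes), with 0 at an unadjusted p below 0.05 (14.7%). DESeq2 (4.1%), the likelihood ratio test (3.62%), limma voom (0.547%) and limma voom with sample weights (0.311%) also called 0 there, DESeq2 giving no adjusted p for 12 of the 16.

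**Figure D3:**
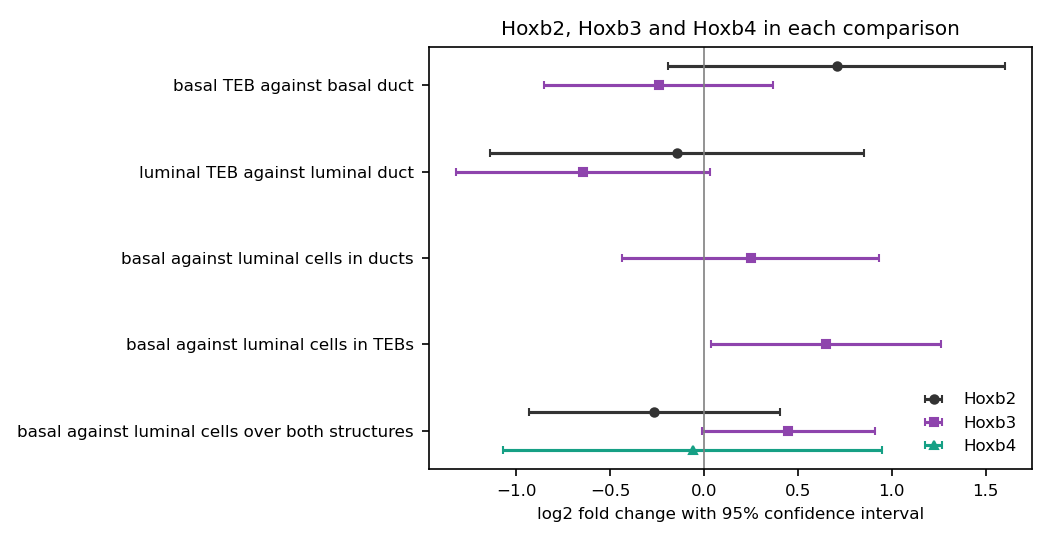
Log2 fold changes (points) with 95% confidence intervals (bars) for Hoxb2, Hoxb3 and Hoxb4 in the comparisons given in the text, from the edgeR fit. Positive values are higher in the group named first, and the interval of Hoxb3 between basal and luminal cells in TEBs (0.0386 to 1.26) is the only one of these 9 that leaves out 0.

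Many genes differed between basal and luminal cells, and none of the 16 Hox genes passed edgeR's test. Most of the 16 had few or no counts in most libraries, so these tests could miss differences. In ducts edgeR called 0 of 16 Hox genes, beside 22.3% of all genes, with 0 at an unadjusted p below 0.05, beside 35.1%. DESeq2 (29.5%), the likelihood ratio test (28.8%), limma voom (28.6%) and limma voom with sample weights (18.5%) called 0 as well. In TEBs edgeR called 0 of 16, beside 25.1%, with 1 at an unadjusted p below 0.05, beside 36.2%. DESeq2 (31%), the likelihood ratio test (30.8%) and limma voom (30.1%) called 0, and limma voom with sample weights called 1 (41.1%). Over both structures edgeR called 0 of 16, beside 35.6%, with 1 at an unadjusted p below 0.05, beside 45%. DESeq2 (39.7%), the likelihood ratio test (41.2%), limma voom (40%) and limma voom with sample weights (37.7%) called 0. DESeq2 gave no adjusted p for 5, 10 and 5 of the 16 genes in ducts, in TEBs and over both.

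Hoxb3 was the one Hox gene in TEBs below an unadjusted p of 0.05. It was at 35.6, 33.6 and 31.2 CPM in basal TEB 1 to 3 and at 17.9, 24.3 and 21.8 CPM in luminal TEB 1 to 3. All basal libraries were above all luminal ones. The log2 fold change of basal over luminal cells was 0.65 (SE 0.28, interval 0.0386 to 1.26, FDR = 0.116 by edgeR). Limma voom with sample weights called Hoxb3 there (FDR = 0.0289). A fit on the 6 TEB libraries alone, in which 3 Hox genes passed the filter, also called it (FDR = 0.0322, beside 34.5% of all genes). Without basal duct 2 and luminal duct 3 the log2 fold change was 0.64 (FDR = 0.0381, beside 27.9%). Without composition normalization it was 0.22 (FDR = 0.674), where the median of all genes tested was -0.35 against 0.04 with it.

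In ducts, Hoxb3 overlapped between basal cells (32 to 49.6 CPM) and luminal cells (22.5 and 44.2 CPM), with a log2 fold change of 0.25 (SE 0.313, interval -0.436 to 0.932, FDR = 0.613 by edgeR). Over both structures the log2 fold change of Hoxb3 was 0.45 (SE 0.211, interval -0.0112 to 0.909, FDR = 0.119). Luminal duct 3 decided this value: without it the log2 fold change was 0.73 (FDR = 0.0176, beside 30.3% of all genes called). Without it and basal TEB 1 it was 0.71 (FDR = 0.0153, beside 36.3%), and without it and basal duct 2 it was 0.63 (FDR = 0.0264, beside 30.3%). Luminal duct 3 also had a mitochondrial share of 28.5%. Its basal markers summed to 217 CPM and its immune markers to 60 CPM, against 81.8 and 11.4 CPM in luminal duct 1. Markers of fibroblasts summed to 250 CPM, of endothelial cells to 31.2 CPM and of adipocytes to 75.1 CPM, against 6.03, 1.02 and 0 CPM in luminal duct 1. The adipocyte sum was Fabp4 alone, as Adipoq, Plin1 and Lep were at 0 in luminal duct 3. The part of these in this result was not tested.

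Hoxb2 and Hoxb4 overlapped between basal and luminal cells in both structures. Over both structures the log2 fold change of Hoxb2 was -0.26 (SE 0.305, interval -0.931 to 0.402, FDR = 0.544 by edgeR). That of Hoxb4 was -0.06 (SE 0.462, interval -1.07 to 0.95, FDR = 0.951), an interval that takes in differences of about 1 log2 unit either way. Hoxa7 was the Hox gene below an unadjusted p of 0.05 over both structures (FDR = 0.0903 by edgeR), from 30, 19 and 11 counts in basal duct 2, basal duct 3 and basal TEB 2 and 1 count in luminal TEB 3.

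The 36 Hox genes other than Hoxb2, Hoxb3 and Hoxb4 held 1955 counts in all, and these were spread unevenly over the libraries. Basal duct 2 held 1102 of them (56.4%), luminal duct 3 held 307 (15.7%) and basal TEB 2 held 223 (11.4%). The other 8 libraries held between 0 and 104 counts. Luminal TEB 1 had none on any of the 36 genes and luminal duct 1 had 1. Of the 26 counted Hox genes, 16 had their highest count in basal duct 2.

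Put the other way, Hoxb2, Hoxb3 and Hoxb4 made up 69.1% of all Hox counts in basal duct 2, 86.3% in luminal duct 3 and between 92.9% and 100% in the remaining libraries. The number of the 36 genes with a count also varied within each group. In basal ducts, 3, 18 and 9 had a count in replicates 1, 2 and 3, and in basal TEBs 3, 16 and 1. In luminal ducts 1 and 8 had one, and in luminal TEBs 0, 8 and 8.

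Markers of endothelial cells, fibroblasts and adipocytes were highest within their groups in basal duct 2, basal TEB 2 and luminal duct 3. Immune markers were not highest within the group in basal TEB 2. The 4 endothelial markers (Pecam1, Cdh5, Kdr, Cldn5) summed to 8.04, 173 and 17 CPM in basal duct 1 to 3 and to 4.56, 37.4 and 2.72 CPM in basal TEB 1 to 3. They summed to 1.02 and 31.2 CPM in luminal duct 1 and 3 and to 1.55, 3.89 and 10.7 CPM in luminal TEB 1 to 3. The highest sums were thus in basal duct 2, basal TEB 2 and luminal duct 3, which were also the 3 libraries with the most counts on the other Hox genes. All 4 endothelial markers had a count in 7 libraries, those 3 among them, although the sort gated out CD31, the product of Pecam1. Pecam1, Cdh5 and Cldn5 were at 0 in basal TEB 1, and Cdh5, Kdr and Cldn5 in luminal duct 1.

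The 6 fibroblast markers (Col1a1, Col1a2, Col3a1, Pdgfra, Dcn, Lum) ranged from 430 to 840 CPM in basal ducts, from 226 to 406 in basal TEBs, from 6.03 to 250 in luminal ducts and from 11.7 to 53.1 in luminal TEBs, again highest within their groups in basal duct 2, basal TEB 2, luminal duct 3 and luminal TEB 2. The 4 adipocyte markers ranged from 4.07 to 181, 2.14 to 23.6, 0 to 75.1 and 0.628 to 9.34 CPM in the same order of groups. Fabp4, which capillary endothelium also expresses, supplied nearly all of the sums in basal duct 2 (179 CPM) and luminal duct 3 (75.1 CPM), where Adipoq and Plin1 were at 0. The 5 immune markers ranged from 24.4 to 82.3, 28.5 to 30.7, 11.4 to 60 and 6.1 to 13.8 CPM. In basal TEB 2 the immune markers, at 30.5 CPM, lay between basal TEB 1 (28.5 CPM) and basal TEB 3 (30.7 CPM). The part of cells with these markers in the counts of the 36 Hox genes was not tested.

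**Figure D4:**
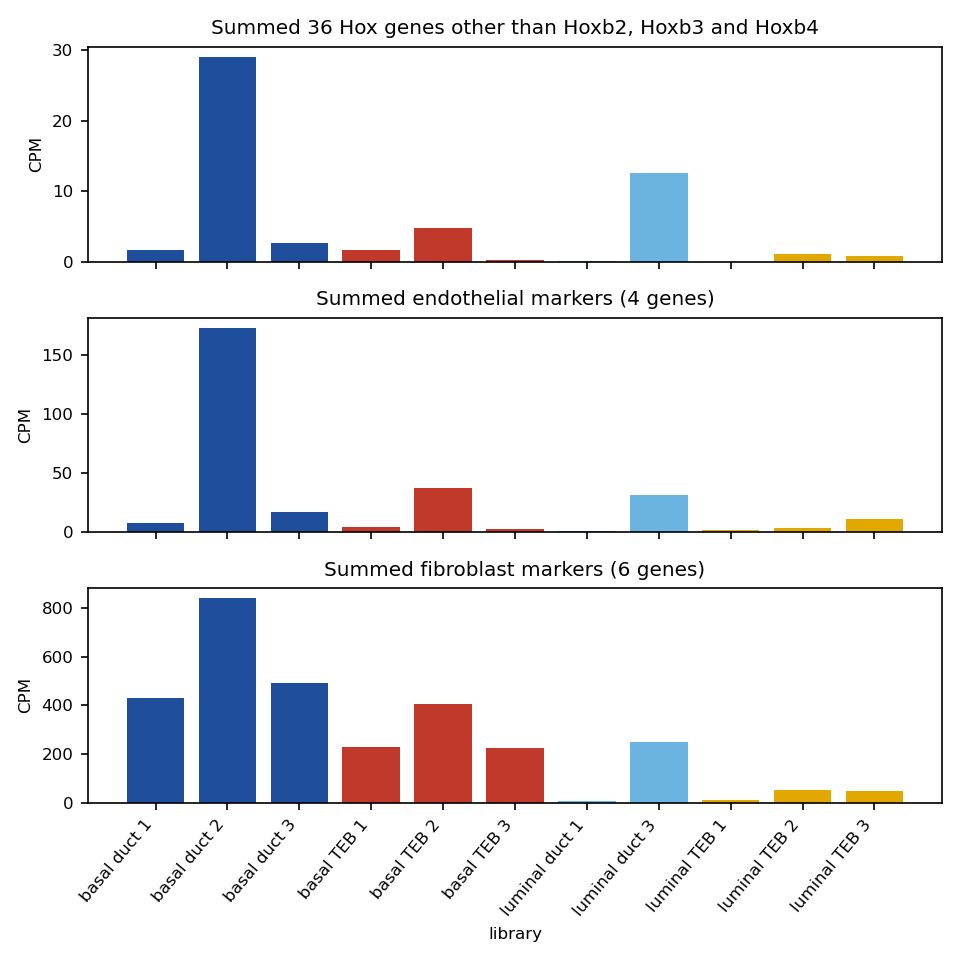
Summed CPM per library of the 36 Hox genes other than Hoxb2, Hoxb3 and Hoxb4 (top), of 4 endothelial markers (middle) and of 6 fibroblast markers (bottom), as bars coloured by group. The Hox sum is highest in basal duct 2 and luminal duct 3, and basal duct 2 is also highest for endothelial markers at 173 CPM and fibroblast markers at 840 CPM.

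The 3 genes of each cluster with the highest mean log2 CPM were, outside cluster B, at 0 in most libraries. Cluster A was led by Hoxa5, whose loss alters mammary development in mice. It had 127 counts in basal duct 2, 114 in luminal duct 3, 10 in basal TEB 2, 6 in luminal TEB 3 and 0 in the other 7 libraries. Hoxa7 had 30 counts in basal duct 2, 19 in basal duct 3, 11 in basal TEB 2, 1 in luminal TEB 3 and 0 elsewhere. Hoxa3 had 54 in basal duct 2, 4 in basal TEB 2, 1 in basal duct 3 and 0 elsewhere. The cluster as a whole had 59.3% of its counts in basal duct 2.

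Cluster C was led by Hoxc4, with 26, 18 and 14 counts in basal duct 1 to 3, 8 in basal TEB 2, 87 in luminal duct 3 and 0 in the other 6 libraries. Hoxc6, a trunk-level gene, had 51 counts in basal duct 2, 23 in basal TEB 2, 13 in luminal TEB 2, 2 in basal duct 3 and 0 elsewhere. Hoxc5 had 32 in basal duct 2, 20 in basal TEB 1, 3 in luminal TEB 3 and 0 elsewhere. Hoxc4 was the one Hox gene outside cluster B with a count in all 3 basal duct libraries.

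Cluster D was led by Hoxd9, a member of paralog group 9. It had 55 counts in basal duct 2, 36 in basal TEB 2, 23 in basal duct 3, 5 in luminal TEB 3 and 0 elsewhere. Hoxd8 had 138 in basal duct 2, 37 in basal TEB 2, 4 in luminal duct 3, 1 in luminal duct 1 and 0 elsewhere. Hoxd4 had 107 in basal duct 2, 77 in luminal duct 3 and 0 in the other 9 libraries. Hoxd4 overlapped the exons of Hoxd3 in 13.2% of its bases, so counts of this pair are uncertain where the reads fell in shared exons. Other Hox genes shared exon bases with counted genes in GENCODE too, such as Hoxa7 with Hoxaas3 (20.4%) and Hoxa11 with Hoxa11os (35.0%). The same limit applies to their counts. Cluster D had 59.6% of its counts in basal duct 2.

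Within cluster B, the genes 5′ of Hoxb4 were far lower than Hoxb4. Hoxb9 had 25 and 173 counts in basal duct 1 and 2, 7, 45 and 7 in basal TEB 1 to 3, 17 in luminal duct 3, 8 in luminal TEB 2 and 0 elsewhere, so it was counted in 7 libraries, the most of any gene outside the leading 3. Of the other group 9 genes, Hoxa9 had no count, Hoxc9 had 10 and Hoxd9 had 119. Hoxb6 had 146 of its 190 counts in basal duct 2. Hoxb7 had 29 and 59 counts in basal duct 1 and 2, 5 in basal TEB 2, 2 in luminal TEB 3 and 0 elsewhere. Hoxb5, next to Hoxb4 on the genome, had 15 and 19 counts in luminal TEB 2 and 3 and between 0 and 6 elsewhere. Hoxb8 had 8 counts in all.

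The clusters also hold microRNA genes that act on Hox transcripts in other tissues. Mature sequences from RefSeq (GRCm38.p6) are shown for the 2 families, with the seed (bases 2 to 8) in capitals. The libraries were not made for small RNA, so counts at these loci are not levels of the mature microRNAs.
miR-10a-5p (Mir10a, chr11:96317186-96317208, plus strand): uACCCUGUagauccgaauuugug
miR-10b-5p (Mir10b, chr2:74726074-74726096, plus strand): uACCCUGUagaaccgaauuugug
miR-196a-5p (Mir196a-1, chr11:96265187-96265208, plus strand): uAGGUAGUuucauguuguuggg
miR-196b-5p (Mir196b, chr6:52230129-52230150, minus strand): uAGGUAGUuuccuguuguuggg

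Mir10a, upstream of Hoxb4, had 4 and 11 counts in luminal TEB 2 and 3 and 0 elsewhere. Mir196a-1, next to Hoxb9, had 20, 14 and 7 counts in basal duct 1, basal duct 2 and basal TEB 2 and 0 elsewhere. Mir10b, Mir196b, the other miR-196a locus Mir196a-2 and Mir615 had no count. In all, 17 genes that are not Hox genes lay within 50 kb of one, of which 10 had no count, Hotair and Hoxa11os among them, and 3 were tested (Gm53, Mir196a-1 and Mira).

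Among those 3, Gm53 was higher in basal than luminal cells over both structures (FDR = 0.0374 by edgeR), beside 19% of all genes. DESeq2 called 0 of the 3 there (39.7% of all genes), with Gm53 at an unadjusted p below 0.05. The likelihood ratio test called 2 of the 3, Gm53 and Mir196a-1 (41.2%). Limma voom (40%) and limma voom with sample weights (37.7%) each called 1, Gm53. Gm53 had 55, 35 and 12 counts in basal duct 1 to 3, 29 in basal TEB 2 and 0 in the other 7 libraries, which included all 5 luminal ones. Mira, a noncoding RNA of cluster A, was not called and had 70 counts in luminal duct 3, 26 in basal duct 3, 3 in basal TEB 2 and 2 in basal duct 2. The loci beside Gm53 were named after their values were seen.

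Hox proteins bind DNA with cofactors of the TALE class, the Pbx proteins and their partners of the Meis and Pknox families. The list held 9 TALE genes and all were tested. Over both structures 3 were higher in basal cells (Pbx3 and Pknox2 among them), beside 19% of all genes, 1 was lower (Meis3), beside 16.6%, and 5 were not called. The median log2 fold change of the 9 genes was 0.17, against 0.08 over all genes tested. In ducts edgeR called 2 of 9, Pbx3 among them, beside 22.3% of all genes, and in TEBs the 4 called over both, beside 25.1%. Over both structures limma voom called 7 of 9, beside 40%, and limma voom with sample weights called 6, beside 37.7%. DESeq2 (39.7%) and the likelihood ratio test (41.2%) each called 4 of 9 there. Between TEBs and ducts edgeR called 0 of 9 in basal cells (1.32% of all genes), with 2 at an unadjusted p below 0.05 (14.5%), Meis3 among them. In luminal cells it called 0 of 9 (1.41%), with 1 at an unadjusted p below 0.05 (16.6%), Pknox2. In basal cells DESeq2 (5.03%), the likelihood ratio test (4.07%) and limma voom (3.46%) each called 1, Meis3, and limma voom with sample weights (2.37%) called 0. In luminal cells DESeq2 (7.35%), the likelihood ratio test (5.79%), limma voom (2.02%) and limma voom with sample weights (1.78%) called 0.

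Pbx3, a Pbx family member, was at 22.7, 26.9 and 25.3 CPM in basal duct 1 to 3 and at 27.4, 37.9 and 44.1 CPM in basal TEB 1 to 3. It was at 10.1 and 6.05 CPM in luminal ducts and at 8.2, 6.8 and 8.3 CPM in luminal TEBs. Every basal library was above every luminal library, and the log2 fold change over both structures was 1.93 (SE 0.234, FDR = 4.22e-05 by edgeR).

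Pknox2 was at 14.7, 23.2 and 12.2 CPM in basal ducts, 8.83, 7.22 and 8.71 in basal TEBs, 3.66 and 2.88 in luminal ducts and 1.91, 0.0762 and 0.501 in luminal TEBs, with no overlap between basal and luminal libraries. Its log2 fold change was 2.83 (SE 0.679, FDR = 0.00635 by edgeR). Without basal duct 2 and luminal duct 3 it was 2.60 (FDR = 0.0561). Meis3 was lower in basal cells over both structures, with a log2 fold change of -2.32 (SE 0.514, FDR = 0.0039). Its basal TEB libraries at 0.0577, 1.64 and 2.07 CPM lay far below its basal duct libraries at 12.9, 15.8 and 11.6 CPM, a difference with an FDR of 0.0508 by edgeR.

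The 5 TALE genes that were not called over both structures included Meis1, at 8.38, 17.5 and 14.0 CPM in basal ducts, 1.04, 11.9 and 14.3 in basal TEBs, 20.7 and 14.7 in luminal ducts and 23.8, 24.3 and 27.8 in luminal TEBs. Basal TEB 1, the library with the highest mitochondrial share, was the lowest for both Meis1 and Meis3. Meis1 was named after its values were seen.

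**Figure D5:**
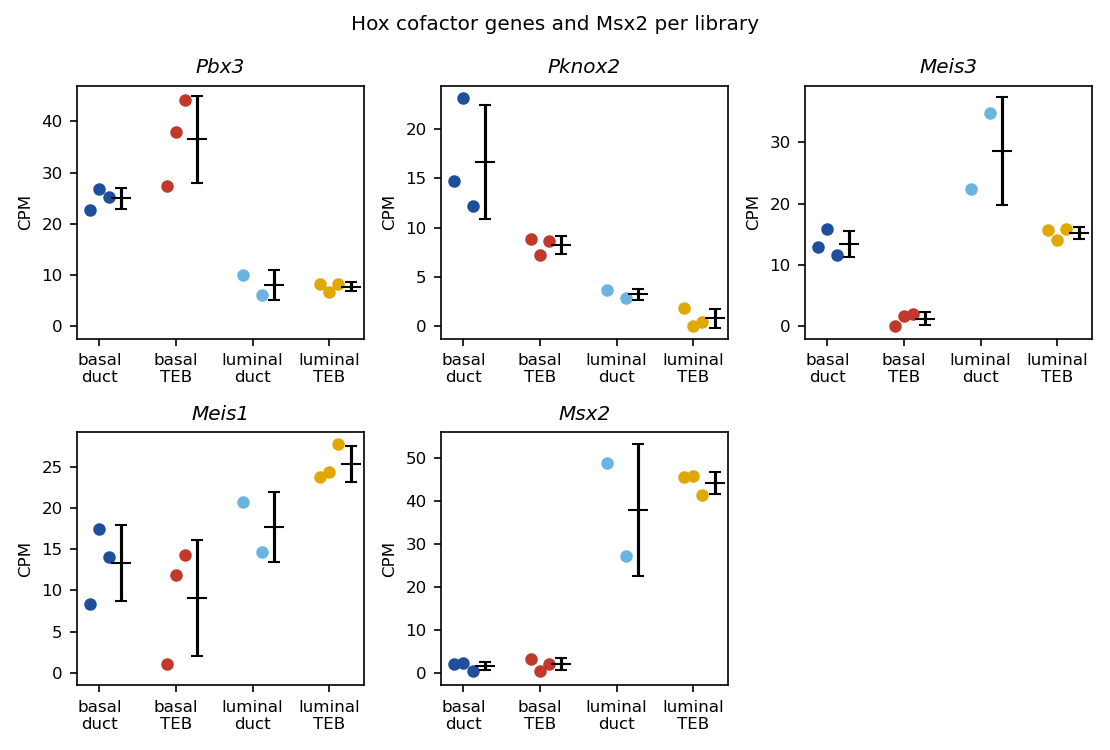
CPM per library (points) by group with group mean and SD (black) for the cofactor genes Pbx3, Pknox2, Meis3 and Meis1 and for the homeobox gene Msx2. Pbx3 and Pknox2 are higher in basal cells, Msx2 lies above 27 CPM in every luminal library and at most at 3.35 CPM in basal ones, and Meis3 is lowest in basal TEB cells.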

How the data were processed

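Counts per gene were deposited by the authors as 1 table and as 11 files per library, which were checked and held equal values. Per the labels and the study's methods, about 10 ng of total RNA went into TruSeq RNA v2 libraries, 80-base paired-end reads from a NextSeq were aligned to mm10 and Rsubread's featureCounts counted them with its inbuilt RefSeq annotation. Identifiers were mapped to RefSeq symbols for 93% of 27179 genes. The Hox genes as the subject, the gene lists and the markers were chosen with earlier results of these data known.

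Counts were analysed in R 4.3.3 with edgeR 4.0.16: filterByExpr (minimum count 10, total 15) kept 17370 genes, TMM scaled the libraries, and 1 quasi-likelihood model held the 4 groups. P-values were adjusted by Benjamini-Hochberg over all genes tested, with a threshold of 0.05. Each SE was back-calculated as the absolute log2 fold change over the square root of the test's F statistic. The 95% intervals were built from that SE. The common biological coefficient of variation was 0.704. RPKM used the deposited gene lengths, and log2 CPM a prior count of 2. Values in every library were given for the 3 genes of each cluster with the highest mean log2 CPM, and of each list up to 6 called genes with the lowest FDR were named, or the 2 highest where none was called. No fold change is given for genes near 0 in a group. DESeq2 1.42.0, limma 3.58.1, other scalings and filters, a replicate block, and fits without single libraries were the alternatives. The scripts were tested on simulated data. Homeoboxes were located by translating GENCODE transcripts of GRCm38 and identity counted base by base. Some genes and sequences are not reported here.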

Additional observations from a re-analysis of the deposited data

How the results depend on the processing

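The count of Hox genes called was 0 in every comparison under most alternatives. It was 1 in these: Hoxc4 between luminal TEBs and ducts with the likelihood ratio test, and Hoxb3 between basal and luminal cells in TEBs with limma voom sample weights, with only the groups compared, and without basal duct 2 and luminal duct 3. Over both structures it was also 1, on Hoxb3, without luminal duct 3 alone (single libraries left out gave counts between 0 and 1), without that library and basal TEB 1, which had the highest mitochondrial shares, and without basal duct 2 and luminal duct 3. The last alternative was chosen after seeing the data, and each fit without luminal duct 3 left 1 luminal duct library. Hoxb3 between luminal TEBs and ducts ranged from -1.05 to -0.06 over its alternatives, Hoxb3 between basal and luminal cells in TEBs from 0.22 to 0.73, and over both structures from 0.24 to 0.73 (log2).

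Some differences that did not pass the test changed sign. Hoxb2 between luminal TEBs and ducts was 0.31 without composition normalization, 0.18 with limma voom, 0.28 with sample weights, 0.65 without the 2 libraries of highest mitochondrial share and 0.65 without basal duct 2 and luminal duct 3. Leaving out single libraries gave -0.64 to 0.63. Hoxb2 between basal and luminal cells over both structures was 0.063 with limma voom sample weights, 0.23 and 0.22 without those pairs of libraries and -0.52 to 0.12 without single libraries. Without single libraries Hoxb3 in ducts ranged from -0.16 to 0.81 and Hoxb4 over both structures from -0.29 to 0.12. The cause was not tested.

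Whether replicate numbers pair the libraries was left undecided. Of 15 same-number pairs 4 had deviations correlated above 0.1 (-0.0677 to 0.163), and the 30 different-number pairs ranged from -0.163 to 0.137. Not every library correlated best with one of its own number. The deviations of the luminal duct libraries mirror each other by construction, so these correlations cannot settle it. With a replicate block the count of Hox genes called was 0 in each comparison. The block gave 125 calls over all genes between luminal TEBs and ducts against 245 without it, and 46 against 77 for the difference of the TEB-to-duct changes. Hoxb3 between basal and luminal cells in TEBs was 0.68 (FDR = 0.105 by edgeR) with it. Over all genes and alternatives, calls ranged from 57 to 874 between basal TEBs and ducts (230 as reported), from 10 to 1305 between luminal TEBs and ducts (245), from 7 to 753 for the difference of these changes (77) and up to 7140 between basal and luminal cells in TEBs (4354). Without composition normalization the calls higher in basal TEB cells went from 52.8% to 37.2% of those between basal and luminal cells in TEBs, and those higher in TEBs from 12.6% to 1.75% of those between basal TEBs and ducts. Rbbp7 (0.42, FDR = 0.179) and Ezh2 (0.34, FDR = 0.235) were not called by edgeR without composition normalization. The 36 lower Hox genes had few counts in most libraries, which limits the tests of them.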

Other observations

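Some other homeobox genes of the class that holds the Hox genes differed between basal and luminal cells. Of 24 listed genes of this class, 10 had no count, 9 were tested and 4 of those 9 did not pass the test. Over both structures edgeR called 3 higher in basal cells (Meox1, Dlx3 and Dlx4), beside 19% of all genes, and 2 lower (Msx2 and Dlx5), beside 16.6%. Meox1, a regulator of somite development, was at 31.3, 23.2 and 52.4 CPM in basal ducts and 86.9, 87.9 and 116 CPM in basal TEBs, and at 0 to 1.69 CPM in luminal libraries. Dlx3, known from skin and placenta, was between 7.64 and 39.5 CPM in basal libraries and between 0 and 0.569 CPM in luminal ones. Dlx4 was between 0.395 and 4.33 CPM in basal libraries and at most 0.343 CPM in luminal ones.

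Msx2, a target of bone morphogenetic protein signalling in ectodermal organs, was at 48.8 and 27.1 CPM in luminal ducts and 45.6, 45.7 and 41.3 CPM in luminal TEBs, and between 0.513 and 3.35 CPM in basal libraries. Its log2 fold change of basal over luminal cells was -4.53 (SE 0.494, FDR = 1.8e-05 by edgeR). Dlx5 had 109, 36, 52 and 48 counts in luminal duct 1 and luminal TEB 1 to 3, 0 in luminal duct 3, 9 in basal TEB 2 and 0 in the other basal libraries. Between TEBs and ducts edgeR called 0 of 9 in basal cells, beside 1.32% of all genes, with 0 at an unadjusted p below 0.05 (14.5%). In luminal cells it called 0 (1.41%), with 2 at an unadjusted p below 0.05 (16.6%). DESeq2 (5.03% in basal and 7.35% in luminal cells) and the likelihood ratio test (4.07% and 5.79%) called 1, Meox1, in luminal cells and 0 in basal cells. Limma voom (3.46% and 2.02%) and limma voom with sample weights (2.37% and 1.78%) called 1, Meox1, in basal cells and 0 in luminal cells.

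Polycomb complexes keep Hox clusters silent in many cells, and trithorax proteins oppose them. Of 11 genes of polycomb repressive complex 2, Rbbp7 (log2 fold change 0.59, FDR = 0.00825) and Ezh2 (0.49, FDR = 0.0125) were higher in basal cells over both structures by edgeR. Ezh1 and Phf1 were lower, which makes 4 of 11 called beside 35.6% of all genes, a share near the background. In ducts alone edgeR called 3 of 11 (Ezh2, Phf1 and Rbbp7), beside 22.3% of all genes. In TEBs alone it called 1 of 11 (Ezh1), beside 25.1%, and Ezh2, Phf1 and Rbbp7 were not below an unadjusted p of 0.05 there. Between luminal TEBs and ducts Ezh2, the methyltransferase found in dividing cells, was higher in TEBs (65 ± 2.98 against 32.7 ± 1.18 CPM, FDR = 0.038) and Phf1 lower (26.3 ± 1.16 against 69.2 ± 15.2 CPM, FDR = 0.0468), beside 1.41% of all genes called there. Of 12 genes of complex 1, 2 were higher in basal cells, among them Cbx2 (2.11, FDR = 0.00374), and 2 lower, Phc3 (-1.04, FDR = 0.000169) and Cbx7, which makes 4 of 12 called, also near the 35.6% of all genes. Of 11 trithorax genes and H3K27 demethylases, edgeR called 0 in each comparison, with 0 to 3 at an unadjusted p below 0.05, where the share of all genes ran from 14.5% to 45%. Between basal TEBs and ducts DESeq2 (5.03% of all genes) and the likelihood ratio test (4.07%) each called 1 (Dpy30), and limma voom (3.46%) and limma voom with sample weights (2.37%) called 0. Between luminal TEBs and ducts DESeq2 (7.35%) and the likelihood ratio test (5.79%) called 2 (Men1 and Psip1), limma voom (2.02%) called 1 (Psip1) and limma voom with sample weights (1.78%) called 0. The most abundant were Kmt2a, at 117 to 259 CPM over the 11 libraries, and Kdm6b, at 128 to 263 CPM.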
